A study of Mus musculus with 3 samples.

Results

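The mature microRNAs (miRNAs) of exosomes shed by B16 cells were set against those of the B16 cells themselves. B16 is a mouse melanoma cell line, labelled as strain C57BL/6J and as skin tissue, and exosomes are small vesicles that cells release into their medium. The labels of both libraries give no treatment, time or passage. The exosomes had been pelleted by ultracentrifugation, RNA was taken up in Trizol, and small RNA was sequenced on an Illumina HiSeq instrument. These are 2 of the 3 libraries of the study, whose other library, exosomes of the mouse skin line JB6 (labelled BALB/c and normal), is used here only for context. With 1 library a side there are no replicates, so no test was run, and every interval given is a 95% interval for counting error alone. A miRNA was kept when it had 30 or more reads over both B16 libraries, which left 422 of 1915 listed miRNAs. At that limit, 8 entries with 31 reads were kept and 3 with 29 reads were not, all of them listed at 0 in the exosomes.

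A miRNA is cut from a hairpin in a longer transcript, and the hairpin yields a 5p arm from its left strand and a 3p arm from its right strand. Usually 1 arm is loaded into an Argonaute protein and the other is degraded, and the loaded arm finds its targets mainly through the seed, bases 2 to 8 from the 5′ end. Hairpins that lie close together can be cut from 1 transcript, and paralogous hairpins give families of mature miRNAs with a shared seed. Arms, families and clusters therefore each offer a set of molecules whose abundance in vesicle and cell can be compared within 1 library.

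The sequences on which the results turn are given first, from RefSeq for build GRCm38.p6, 5′ to 3′. A sequence was matched for 377 of the 422 kept miRNAs. In the first set capitals mark the seed. It holds arms of the miR-30 and let-7 hairpins (some with a changed balance, and miR-30a, without one, for comparison), members of clusters and families that differed between vesicle and cell, and entries far more abundant in the exosome library.
miR-30a-5p: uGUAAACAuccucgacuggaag
miR-30c-5p: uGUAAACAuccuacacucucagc
miR-30e-5p: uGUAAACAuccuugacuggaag
miR-30a-3p: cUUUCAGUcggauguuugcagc
miR-30e-3p: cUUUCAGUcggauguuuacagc
miR-30c-2-3p: cUGGGAGAaggcuguuuacucu
let-7d-5p: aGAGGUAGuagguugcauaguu
let-7d-3p: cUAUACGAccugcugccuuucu
let-7a-1-3p: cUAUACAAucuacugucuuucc
miR-24-3p: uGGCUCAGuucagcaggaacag
miR-27a-3p: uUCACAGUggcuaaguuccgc
miR-27a-5p: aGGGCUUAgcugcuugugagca
miR-16-5p: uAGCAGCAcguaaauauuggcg
miR-15b-5p: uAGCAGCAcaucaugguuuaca
miR-221-3p: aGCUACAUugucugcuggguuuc
miR-222-3p: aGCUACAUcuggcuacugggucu
miR-184-3p: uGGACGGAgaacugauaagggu
miR-690: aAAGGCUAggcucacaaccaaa
miR-6538: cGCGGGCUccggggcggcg
miR-5126: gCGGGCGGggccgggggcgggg

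In the next set capitals mark the bases that differ from the first member of each group, compared from the 5′ end without gaps. These paralogues differ by 1 to 4 bases and are shown because their exosome shares differed.
miR-99a-5p: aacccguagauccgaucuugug
miR-100-5p: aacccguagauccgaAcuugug
miR-99b-5p: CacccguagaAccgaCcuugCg
miR-30a-5p: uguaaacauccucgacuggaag
miR-30e-5p: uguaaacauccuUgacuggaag
let-7a-5p: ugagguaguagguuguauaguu
let-7f-5p: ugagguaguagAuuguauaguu
let-7c-5p: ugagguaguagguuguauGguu
let-7d-5p: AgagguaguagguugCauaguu
miR-27b-3p: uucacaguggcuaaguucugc
miR-27a-3p: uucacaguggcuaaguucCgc

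The exosome library was shallow, and this sets what the comparison can show. Reads assigned to miRNAs numbered 7925726 in the cells and 45677 in the exosomes, which is 90.9% and 5.39% of the totals behind the authors' normalized values. No count between 1 and 9 is listed, so a listed 0 stands for at most 9 reads, or 197 RPM of miRNA reads in the exosomes and 1.14 RPM in the cells. Of the miRNAs, 144 were listed above 0 in both libraries, 415 in the cells alone and 5 in the exosomes alone. Abundances are given as shares of the summed miRNA reads of a library, and the ratio is the exosome share over the cell share. A share says how the miRNA pool is divided, not how many molecules a vesicle or a cell holds. Calls of higher or lower required a ratio of 2-fold or more and an interval that excluded 1. A miRNA listed at 0 was set at 9 reads, which gives a bound, and it was called not resolved when the bound did not reach the rule.

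The most abundant miRNAs were the same in vesicle and cell: the 10 with the most reads in the exosomes were also the 10 with the most in the cells. Leading both was let-7i-5p, of the differentiation-linked let-7 miRNAs, at 15.7% of miRNA reads in the cells and 17.5% in the exosomes. Their ratios nevertheless ran from 0.392 to 2.12. The high end was miR-143-3p, a miRNA of smooth muscle and fibroblasts, with 285130 cell reads and 3478 exosome reads (3.60% and 7.61% of the library). The low end was miR-30d-5p, with 652141 and 1475 reads (8.23% and 3.23%). Between them lay let-7f-5p at 1.59 and miR-30a-5p at 1.33, then miR-10b-5p at 1.23, let-7i-5p at 1.12 and let-7c-5p at 1.08. Below an equal share were miR-7a-5p at 0.816, the oncogenic miR-21a-5p at 0.621, and let-7g-5p at 0.578.

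Among the 422 kept miRNAs, 36 were higher in the exosomes (8.53%), 33 were lower (7.82%), 86 met neither rule and 267 could not be resolved. A miRNA listed at 0 in the exosomes can be called lower only from 3124 cell reads upward, while a miRNA scarce in the cells can only be seen if its exosome share is high. The balance of calls was therefore read over the 116 miRNAs that would be expected to have 20 or more exosome reads at an equal share, a selection made from the cell counts alone. These hold 98.1% of the cell reads and 93.7% of the exosome reads. Of the 116, 11 were higher (9.48%), 33 were lower (28.4%) and 72 were neither, and 10 were listed at 0. Their median log2 ratio was -0.43. These counts depend on the scaling: with TMM factors over the 3 libraries 0 were higher and 77 lower, and with the authors' totals 0 and 116, so none of the 11 higher calls held under either. The scatter of shares plots every kept miRNA with its call.

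**Figure D1:**
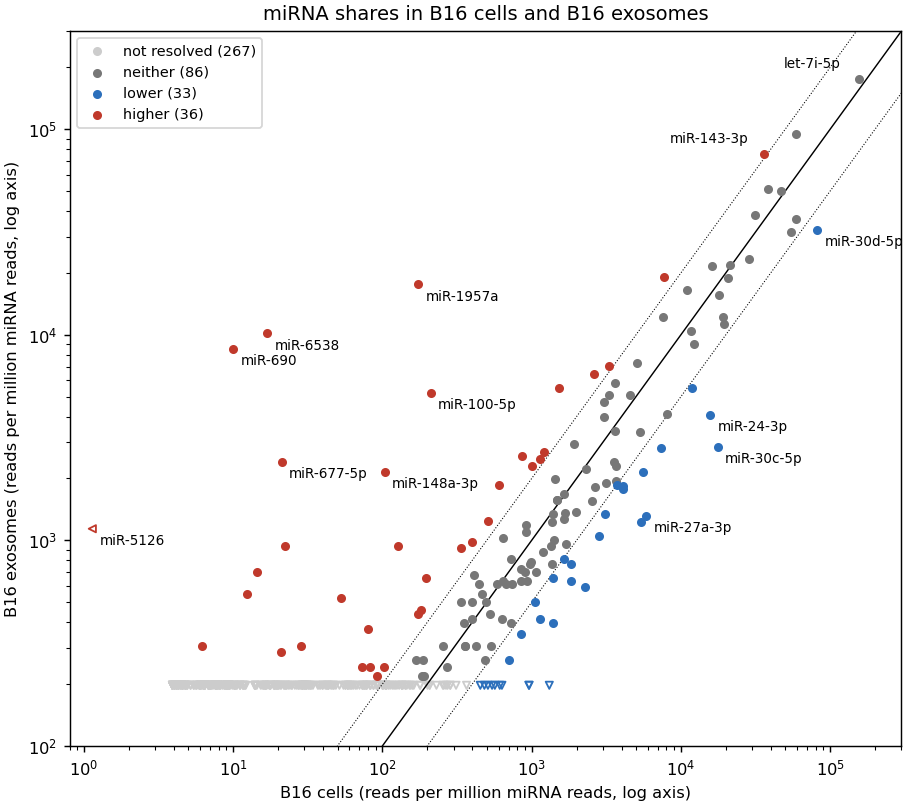
Normalised share of miRNA reads (RPM) in B16 cells (horizontal log axis) and in B16 exosomes (vertical log axis), 1 point per kept miRNA, coloured by call, with a solid line at equal shares and dotted lines at 2-fold; open triangles are miRNAs listed at 0 in 1 library, placed at 9 reads. The abundant miRNAs lie along the line, miR-30c-5p and miR-27a-3p fall below it, and a set with very low cell shares, led by miR-690 and miR-6538, lies far above it.

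Of the 11 higher miRNAs in that set, miR-184-3p, which is expressed in pigment and eye tissues, was highest. It had 12170 cell reads and 252 exosome reads, a ratio of 3.59 (3.16 to 4.07). Next were miR-1981-5p at 3.10 and miR-145a-5p at 2.98 (2.46 to 3.57), the partner of miR-143 in 1 cluster. The tumour-suppressive miR-16-5p had 9558 and 123 reads, a ratio of 2.23 (1.85 to 2.67), and miR-26b-5p had 26041 and 323 reads, a ratio of 2.15 (1.92 to 2.40). For miR-146b-5p, which restrains NF-κB signalling, it was 2.27 (1.86 to 2.75), and for miR-151-3p 2.46 (2.30 to 2.63). All 11 of them lay under 4-fold, and each was the arm with more cell reads of its hairpin.

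The 33 lower miRNAs were led by arms of the miR-23/27/24 and miR-30 hairpins. For miR-27a-5p, the rarer arm of its hairpin, the cells held 10401 reads and the exosomes were listed at 0, so its share was at least 6.66-fold lower. It was the only miRNA listed at 0 with 50 or more reads expected at an equal share. Next came miR-30c-5p, with 139659 and 130 reads and a ratio of 0.162 (0.135 to 0.192). For miR-27a-3p the counts were 46452 and 60 and the ratio 0.224 (0.171 to 0.289), and for miR-24-3p they were 124780 and 186 and the ratio 0.259 (0.223 to 0.299). The ratio of miR-484 was 0.258 (0.170 to 0.376) and that of miR-32-5p, with 10946 and 18 reads, was 0.285 (0.169 to 0.451).

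The entry miR-3074-5p, at 0.226 (0.171 to 0.294), comes from hairpins that overlap those of miR-24 on the opposite strand. The strand setting of the counting is not known from the labels, so its reads and those of the miR-24 arms may not be separate. The entries let-7c-2-3p and let-7a-1-3p have 1 mature sequence and the same 7604 cell reads, and both were listed at 0 in the exosomes, a share at least 4.87-fold lower. They are 1 observation rather than a pair.

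The other 25 higher miRNAs had fewer than 20 reads expected, and they are visible because their exosome share was high. Together they made up 5.65% of the exosome miRNA reads (2583 reads) and 0.253% of the cell reads. For miR-690 there were 79 cell reads and 390 exosome reads, a share 857-fold higher (671 to 1105). For miR-6538, whose mature sequence is 94.7% G and C, there were 134 and 464 reads and a ratio of 601 (495 to 734). For miR-1957a the counts were 1373 and 804 and the ratio 102 (93.0 to 111), and for miR-677-5p they were 167 and 110 and the ratio 114 (89.0 to 146). For miR-3473a they were 176 and 43, a log2 ratio of 5.41. The entry miR-5126, whose sequence holds only G and C, was listed at 0 in the cells and had 52 exosome reads, at least 1003-fold higher. In the JB6 exosomes miR-690, miR-677-5p, miR-3473a and miR-5126 were listed at 0, while miR-6538 had 1458 reads and miR-1957a had 29. Whether reads of other RNAs were assigned to these entries was not tested.

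Some cell-scarce miRNAs among the higher ones were abundant in the JB6 exosomes. Of the 36 higher miRNAs, 30 were listed in that library (83.3%), as were 273 of all 422 kept miRNAs (64.7%). Among miRNAs with fewer than 20 reads expected, 19 of the 25 higher ones and 143 of the other 281 were listed there, with miR-122-5p and miR-148a-3p the most abundant of them. There miR-122-5p, the dominant miRNA of hepatocytes, held 25.1% of miRNA reads, while it had 421 reads in B16 cells and 24 in B16 exosomes, a ratio of 9.89 (6.27 to 14.9). The JB6 exosomes held 1129522 reads of it. At the same proportion of B16 exosome reads to JB6 exosome reads, miR-148a-3p (819 cell reads, 98 exosome reads, ratio 20.8) would have 20.8 of its 98 reads, and miR-100-5p (1670 and 239 reads, ratio 24.8) would have 0.936 of its 239. The part of reads from the other library in these values was not tested. The imprinted miRNAs miR-127-3p (115 and 32 reads, ratio 48.3) and miR-379-5p (49 and 14 reads, ratio 49.6) made up 0.126% and 0.0137% of the JB6 exosome reads.

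Arm balance compares 2 molecules of 1 hairpin inside each library, so it does not depend on how the libraries are scaled. Of 104 hairpins with 30 or more reads over both arms in each library, 7 shifted at least 2-fold toward the 5p arm in the exosomes (6.73%) and 5 toward the 3p arm (4.81%). A further 8 did not reach the rule and 84 were not resolved. An arm was listed at 0 in the exosomes for 91 of the 104, and both arms were listed in both libraries for 13.

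The clearest shift toward 3p at a hairpin of a single locus was that of miR-30e, which lies in an intron of Nfyc at chr4:120772606-120772697 on the minus strand (GRCm38.p6). The hairpin, with both arms in capitals, reads as follows.
Mir30e: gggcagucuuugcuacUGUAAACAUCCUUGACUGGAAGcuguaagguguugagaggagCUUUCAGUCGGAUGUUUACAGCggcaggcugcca
The cells held 24577 reads of its 5p arm and 11368 of its 3p arm, and the exosomes held 61 and 91. The 5p arm thus made up 68.4% of the hairpin's reads in the cells and 40.1% in the exosomes (exact interval 32.3% to 48.4%), so that the minor arm of the cells was the major arm of the vesicles. The 3p to 5p ratio was 3.23-fold higher in the exosomes (2.30 to 4.54). In the JB6 exosomes the 5p arm made up 36.4%, from 148 and 259 reads. Each arm of miR-30e differs by 1 base from that of miR-30a, which had 2331 and 267 exosome reads. The assignment of reads between them depends on the treatment of mismatches, which the labels do not state.

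A second shift toward 3p was at let-7d, in an exon of the long non-coding RNA 6720427I07Rik at chr13:48536012-48536114 on the minus strand.
Mirlet7d: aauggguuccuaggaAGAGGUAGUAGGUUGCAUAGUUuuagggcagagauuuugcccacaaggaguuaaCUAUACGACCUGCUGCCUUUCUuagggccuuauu
Its arms had 43872 and 4639 reads in the cells and 98 and 28 in the exosomes. The 5p arm made up 90.4% in the cells and 77.8% in the exosomes (69.5% to 84.7%), a 2.70-fold change of the arm ratio (1.71 to 4.15). The ratio of shares was 0.388 for the 5p arm and 1.05 for the 3p arm. In the JB6 exosomes the 3p arm held 55565 reads and the 5p arm 1033.

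The 3p arm was also favoured at miR-30c-2, miR-140 and miR-152. At miR-30c-2 the arm ratio changed 4.62-fold (2.97 to 6.96), but the 5p arm is shared with a second hairpin, Mir30c-1, so the balance is not that of 1 hairpin. At miR-140, which has 2253 reads of 5p and 15251 of 3p in the cells, the exosomes listed 0 and 134, a change of at least 2.20-fold. At miR-152 they were 2013 and 24053 in the cells and 0 and 216 in the exosomes, a change of at least 2.01-fold. Counting intervals around these last values reach down to 1.12 and 1.04.

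Shifts toward 5p rested mostly on 3p arms listed at 0. At miR-16-1 the cells had 9558 reads of 5p and 4300 of 3p, and the exosomes had 123 and 0, a change of at least 6.15-fold. At miR-145a the counts were 6822 and 1822 against 117 and 0, at least 3.47-fold, and at miR-30b they were 13035 and 3819 against 77 and 0, at least 2.51-fold. The changes at let-7c-2 and let-7a-1, at least 5.24-fold and 3.10-fold, use the shared 3p sequence named above. Both arms were listed at miR-199a, with 165 and 11717 cell reads and 13 and 72 exosome reads, a 12.8-fold change (6.38 to 23.9), and at miR-181a-1, with a change of 2.08-fold (1.10 to 4.26). The 3p arm of miR-199a has the same counts as that of miR-199b. Only miR-30b and miR-145a among the 7 have arms that each come from 1 hairpin, against 4 of the 5 hairpins that shifted toward 3p.

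For the 8 hairpins that met neither rule, the change of arm balance was under 2-fold, though some intervals reach beyond it. The most abundant hairpins, such as those of let-7i, miR-21a and miR-30d, are not among them, since their minor arms could not be resolved. At miR-30a the 5p arm made up 91.4% of reads in the cells and 89.7% in the exosomes, with 2331 and 267 exosome reads, a balance change of 0.824 (0.726 to 0.940). At miR-106b the change was 0.963 (0.598 to 1.48), at miR-132 it was 0.860 (0.372 to 1.83) and at miR-143, with 11 and 3478 exosome reads, it was 1.11. At miR-340 it was 0.550 (0.324 to 0.982), at miR-99b it was 0.583 (0.358 to 1.0), at miR-423 it was 1.58 (0.995 to 2.44) and at miR-24-2 it was 1.62 (1.09 to 2.33), and both its arms were lower in the exosomes. The plot of arm shares sets out the called hairpins.

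**Figure D2:**
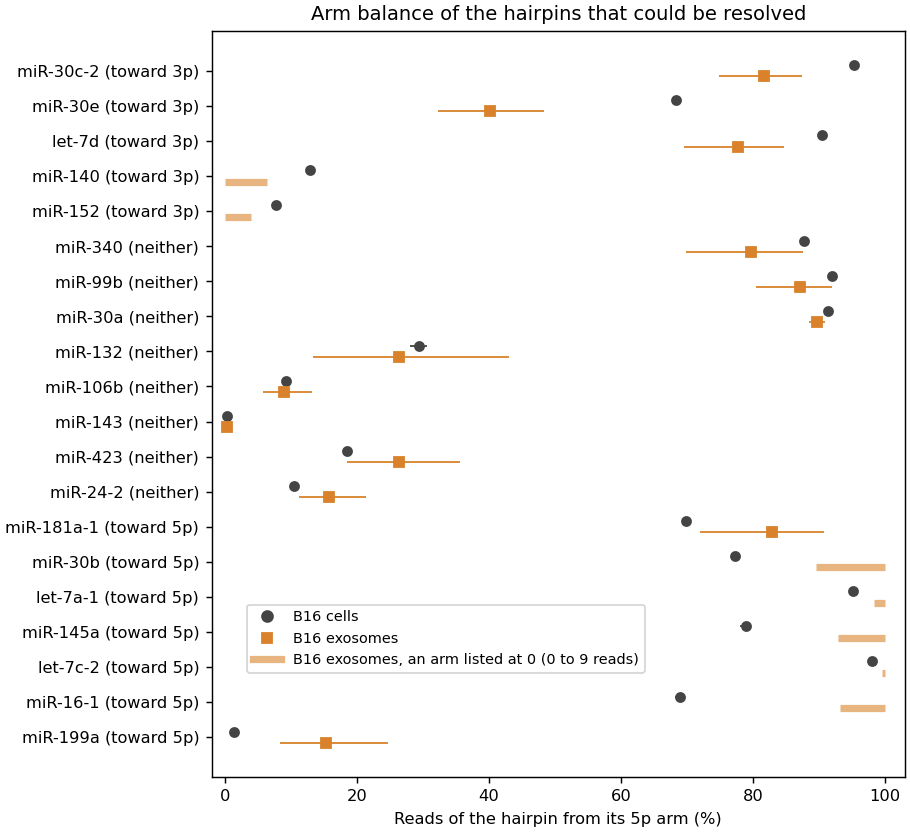
Share of the 5p arm among the reads of each hairpin (horizontal axis, percent) in B16 cells (circles) and B16 exosomes (squares), with exact 95% intervals, for the 12 hairpins called and the 8 that met neither rule; thick bars give the range of the exosome share when an arm is listed at 0 (0 to 9 reads). At miR-30e the exosome point lies at 40.1% against 68.4% in the cells, and at miR-30a the points nearly coincide.

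Over all hairpins, arms with more cell reads than their partner and arms with fewer did not separate in a stable way. Among the 116 miRNAs, the 99 major arms had a median log2 ratio of -0.29, with 11 higher and 24 lower. The 14 minor arms had a median of -1.27, with 0 higher and 8 lower, but 6 of them were listed at 0 and stand at their bound. With 50 expected reads in place of 20, the medians were -0.43 over 71 major arms and -0.39 over 4 minor arms. Minor arms that kept their share were miR-30a-3p at 1.62, miR-30e-3p at 1.39 and let-7d-3p at 1.05.

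Reads were next summed over families with a common seed. Of 48 families with at least 2 entries listed in the cells, 1 was higher in the exosomes (2.08%), 2 were lower (4.17%), 27 met neither rule and 18 could not be resolved. Reads of entries with 1 sequence and the same counts were taken once. This leaves the family of miR-199a-3p and miR-199b-3p, which met neither rule, with 1 distinct member. The higher family was miR-221/222, which targets the Kit receptor and cell cycle inhibitors. It had 3256 cell reads and 53 exosome reads, a ratio of 2.82 (2.11 to 3.70). At an equal share fewer than 20 exosome reads would be expected for the whole family, so both members lie outside the 116 miRNAs. Of them, miR-222-3p, with 577 cell reads and 11 exosome reads, is visible because its exosome share was high. The lower families were miR-27 and miR-125 with miR-351-5p. For miR-27 the counts were 140998 and 312 and the ratio 0.384 (0.342 to 0.429). For the miR-125 family they were 19667 and 37 and the ratio 0.326 (0.230 to 0.450), or 0.406 if miR-351-5p, listed at 0, had 9 reads. The 3p arms of let-7 hairpins with the seed UAUACAA, 4 distinct sequences with 9301 cell reads, were all listed at 0 and not resolved, since with 9 reads each the ratio would be 0.672. The miR-29 family stood at 0.463, but it was not resolved, since 2 of its members were listed at 0 and the ratio would be 0.561 with 9 reads for each.

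Apart from miR-27, the 12 largest families differed by less than 2-fold in overall share. The let-7 family made up 2839028 cell reads and 17368 exosome reads, a ratio of 1.06 (1.05 to 1.08). Ratios were 1.09 for miR-10, 1.05 for miR-25/32/92, 0.951 for miR-99/100, 0.813 for miR-7 and 0.740 for miR-17/20/93/106. Above 1 were miR-103/107 at 1.42, miR-26 at 1.47, the 3p arms of miR-30a and miR-30e at 1.55, and miR-148/152 at 1.78. The miR-30 5p family, with miR-30b and miR-30d placed by their names because no sequence was matched, made up 14.3% of the cell library and 8.92% of the exosome library, a ratio of 0.624 (0.605 to 0.644) that does not reach 2-fold.

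Single members were then compared within families. The ratio of a family averages those of its members, so members necessarily lie around it. No gap for unrelated miRNAs is given for reference. Over the 17 families with at least 2 of the 116 miRNAs, the median gap between the highest and lowest member was 1.68-fold, and it passed 2-fold in 6. In 2 of the 17 the members have 1 set of counts (miR-199a-3p with miR-199b-3p, and the let-7 3p pair), and without them the median was 1.76-fold over 15. Widest was miR-30, from miR-30a-5p at 1.33 and miR-30b-5p at 1.02 down through miR-30e-5p at 0.431 and miR-30d-5p at 0.392 to miR-30c-5p at 0.162. The makeup of the family changed with it. Of its reads, miR-30d-5p made up 57.6% in the cells and 36.2% in the exosomes, and miR-30a-5p 26.8% and 57.2%. The ratio of miR-30a-5p to miR-30e-5p, which differ by 1 base outside the seed, was 3.10-fold higher in the exosomes (2.40 to 4.06), and that of miR-30a-5p to miR-30c-5p 8.26-fold higher (6.92 to 9.93). The 3p arms of miR-30a and miR-30e also differ by 1 base, and their ratio was 0.858 (0.668 to 1.09) for miR-30e-3p over miR-30a-3p.

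The let-7 family spread over 4.11-fold (3.36 to 5.07) from let-7f-5p at 1.59 to let-7d-5p at 0.388. Between them lay let-7a-5p, with 151598 and 557 reads and a ratio of 0.638, and it differs from let-7f-5p by 1 base. The balance of let-7f-5p to let-7a-5p changed 2.50-fold (2.28 to 2.73), and that of let-7c-5p to let-7a-5p, also 1 base apart, 1.69-fold (1.54 to 1.86). With paralogues this close, as also with miR-30a and miR-30e, the assignment of reads to members depends on how the authors treated mismatches. The labels do not state it.

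Gaps of this kind recurred in smaller families. In the family of miR-16-5p and miR-15b-5p, which act together on cell cycle genes, the ratios were 2.23 and 0.541, a balance change of 4.13-fold (2.28 to 8.21). In that of miR-25-3p, miR-92a-3p and miR-32-5p they were 1.50, 0.740 and 0.285. In the miR-27 pair, 1 base apart, both were lower, at 0.462 for miR-27b-3p and 0.224 for miR-27a-3p, and the balance changed 2.06-fold (1.55 to 2.78). For miR-99a-5p and miR-99b-5p the ratios were 0.910 and 0.381. Wider gaps involved miR-100-5p and miR-148a-3p, which are scarce in the cells and lie outside the 116 miRNAs. Between miR-100-5p and miR-99a-5p, 1 base apart, the balance changed 27.3-fold toward miR-100-5p (23.3 to 31.8). Between miR-148a-3p and miR-148b-3p it changed 12.9-fold toward miR-148a-3p (10.2 to 16.2). At an equal share miR-100-5p and miR-148a-3p would have 9.62 and 4.72 exosome reads, so they are visible because their exosome shares were high. Scarce members listed at 0, such as miR-195a-5p with 1087 cell reads, were not resolved. Whether scarce members differ more therefore cannot be read from these counts. Both miR-100-5p and miR-148a-3p are among the miRNAs abundant in the JB6 exosomes. In contrast, miR-148b-3p and miR-152-3p had like ratios, with a balance change of 1.03 (0.882 to 1.22).

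**Figure D3:**
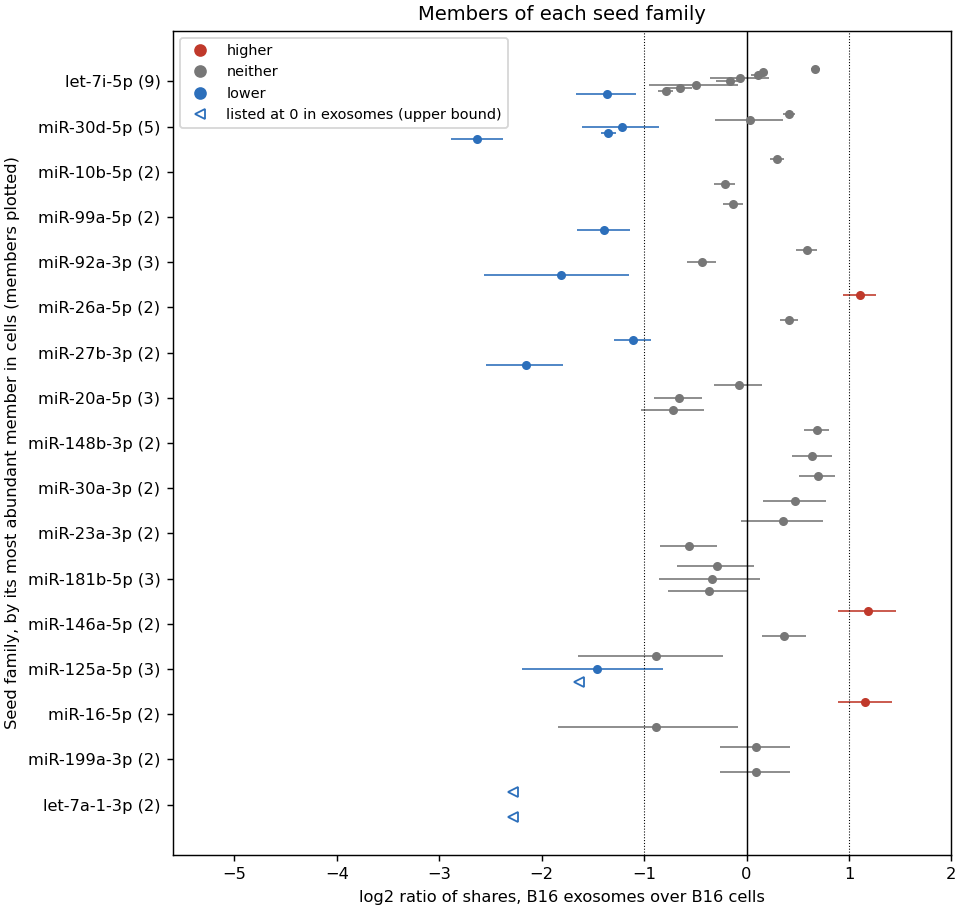
Log2 ratio of shares (B16 exosomes over B16 cells, horizontal axis) of each member of the 17 seed families with at least 2 well-measured members, 1 row per family, with 95% counting intervals; colours give the call and open triangles mark members listed at 0 in the exosomes. Entries without a matched sequence were placed in families by name. The miR-30 row spans the widest range, and the miR-148/152 and miR-181 rows the narrowest among rows whose members have their own counts.

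Hairpins on 1 strand whose starts lay within 10 kb of each other were joined into clusters, with coordinates of build GRCm38. For 18 clusters with at least 2 well-measured major arms, the median gap between the highest and lowest member was 1.80-fold, and it passed 2-fold in 8. Of these clusters 2 hold the same miR-181a and miR-181b, and that of miR-322-3p and miR-351-5p has both members at their bound (3.21-fold and 3.10-fold lower or more), so its gap carries no information. Without that cluster and the repeated miR-181 pair, the median over 16 was 2.25-fold.

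The miR-23/27/24 hairpins, which are linked to vascular and haematopoietic programmes, form a pair of paralogous clusters, and in both the miR-23 arm had the highest ratio. At chr8:84208518-84208921 the ratios were 0.678 for miR-23a-3p, 0.224 for miR-27a-3p and 0.259 for miR-24-3p. At chr13:63300484-63301275, within 2010111I01Rik, they were 1.28 for miR-23b-3p and 0.462 for miR-27b-3p, followed by the same miR-24-3p, whose 2 hairpins give 1 mature sequence. The balance of miR-23a-3p to miR-27a-3p changed 3.03-fold (2.19 to 4.22), and that of miR-23b-3p to miR-27b-3p 2.77-fold (2.02 to 3.73).

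Other clusters also spread over more than 2-fold. In introns of Clcn5 at chrX:7241243-7248497, miR-532-5p was higher (20770 and 294 reads, ratio 2.46) and miR-501-3p was lower (4034 reads and a listed 0), so that their balance changed at least 6.34-fold. In an intron of Smc4 at chr3:69009772-69009996, miR-15b-5p stood at 0.541 and miR-16-5p at 2.23, though miR-16-5p is also made at a second locus. In exons of the long non-coding RNA 4833445I07Rik at chr9:108568319-108568861, miR-191-5p stood at 0.526 and miR-425-5p at 1.59, a balance change of 3.03-fold (2.08 to 4.37). At the Nfyc intron at chr4:120769534-120772697, miR-30e-5p stood at 0.431 and miR-30c-5p at 0.162, a change of 2.67-fold (1.93 to 3.64). As miR-30c-5p is also made at Mir30c-2 on chr1, its ratio is not that of this locus alone. At chr15:68337415-68341289, miR-30d-5p stood at 0.392 and miR-30b-5p at 1.02, a change of 2.61-fold (2.05 to 3.29). At chr13:48536012-48538272, let-7a-5p, let-7f-5p and let-7d-5p stood at 0.638, 1.59 and 0.388, though let-7f-5p is also made at Mirlet7f-2, so its ratio is not that of this locus alone.

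In other clusters the gap between well-measured members was under 2-fold, though some balances changed with intervals that exclude 1. In Mir17hg, the host of the growth-promoting miR-17 cluster, miR-17-5p, miR-20a-5p and miR-92a-3p stood at 0.610, 0.631 and 0.740, and the balance of miR-20a-5p to miR-17-5p was 1.04 (0.791 to 1.36). Also from this host, miR-19b-3p, with 11.7 exosome reads expected and 14 seen, stood at 1.20 (0.654 to 2.01). Both miR-92a-3p and miR-19b-3p are also made on chrX, so their ratios are not those of Mir17hg alone. The miR-181 pair stood at 0.774 and 0.818. In Mcm7, miR-106b-3p and miR-25-3p stood at 1.56 and 1.50, with a balance of 1.04 (0.890 to 1.20), and miR-93-5p at 0.948. The balance of miR-25-3p to miR-93-5p changed 1.58-fold (1.33 to 1.90). In Spaca6 at chr17:17830188-17830879, miR-99b-5p and miR-125a-5p were both lower, at 0.381 and 0.364, while let-7e-5p, whose hairpin lies between theirs, stood at 0.709. The balance of let-7e-5p to miR-99b-5p changed 1.86-fold (1.30 to 2.63), and to miR-125a-5p 1.94-fold (1.12 to 3.52). Both members of the miR-143/145 cluster were higher, at 2.12 and 2.98. In the chr15 cluster let-7c-5p and let-7b-5p stood at 1.08 and 0.894. On chr16 miR-99a-5p and let-7c-5p stood at 0.910 and 1.08, and on chrX let-7f-5p and miR-98-5p at 1.59 and 0.958. Both let-7c-5p and let-7f-5p are made at more than 1 locus.

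**Figure D4:**
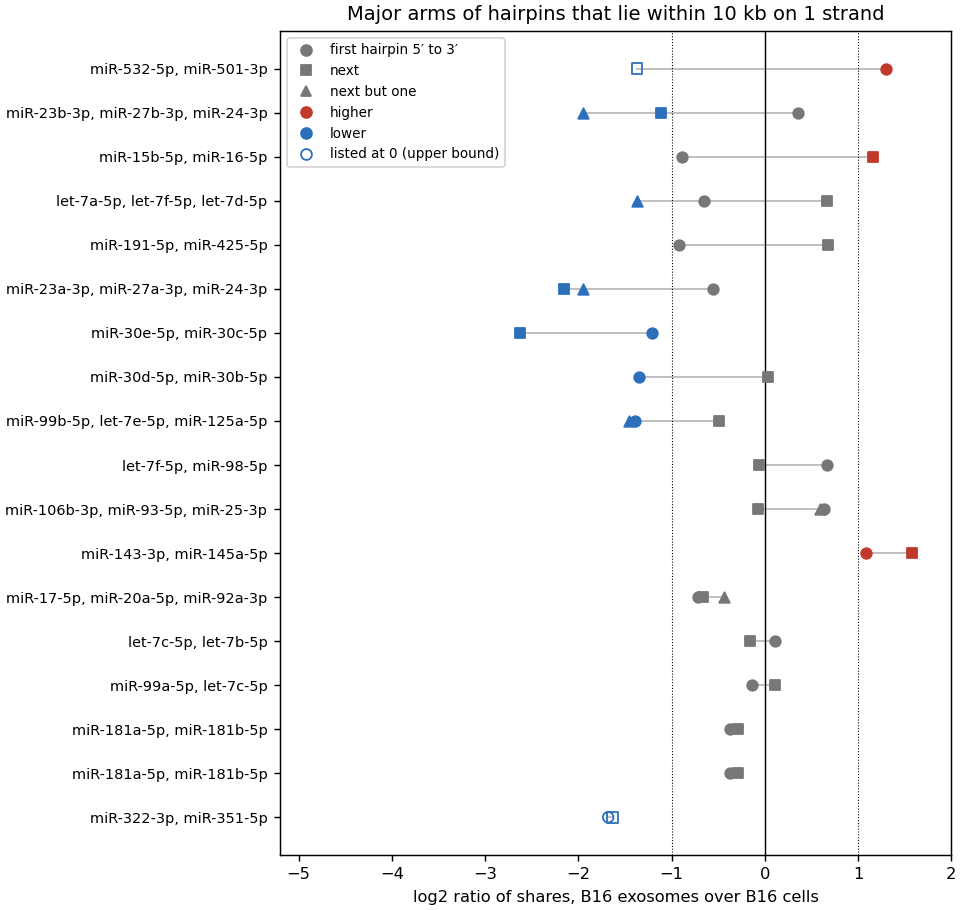
Log2 ratio of shares (B16 exosomes over B16 cells, horizontal axis) of the major arms of each of the 18 hairpin clusters, 1 row per cluster; shapes give the 5′ to 3′ order of the hairpins, colours the call, open symbols an arm listed at 0 in the exosomes (placed at its upper bound) and dotted lines 2-fold. The rows of miR-532/501 and miR-15b/16 and both miR-23/27/24 rows spread widely, while the miR-17, miR-181 and miR-143/145a rows stay close together.

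Sequence features were set beside the ratios. Across the 102 of the 116 miRNAs with a matched sequence, which are not independent and share depth and scaling, the Spearman coefficient of the log2 ratio was -0.11 with G and C content, 0.01 with length and 0.03 with cell reads. Over miRNAs with 50 expected reads, the coefficient was -0.20 with G and C content and -0.12 with length. Median log2 ratios by the last base at the 3′ end were -0.69 for A (19 miRNAs), -0.46 for C (18), -0.37 for U (37) and -0.35 for G (28). The motif GGAG, searched on the miRNA strand because of its reported role in exosome loading, was in 6 of the 102 (5.88%, against 14.2% of 1674 mature mouse sequences), with a median of -0.39 against -0.48 without it. The motif CCCU was in 9 (8.82%, against 11.4%), with a median of -1.07 against -0.37. A match is a description of letters only.

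Markers of the cell of origin and of other cell types were read in both libraries. Melanocyte-lineage miRNAs made up 0.435% of cell reads and 0.757% of exosome reads, against 0.0115% in the JB6 exosomes. The difference rests on miR-184-3p, without which the list made up 0.281% and 0.206%. Of 7 on the list, 2 were higher (against 8.53% of all kept miRNAs; miR-184-3p, and miR-182-5p at 2.91 from 11 exosome reads), miR-211-5p, which lies in the melanocyte gene Trpm1, was neither (21080 and 83 reads, ratio 0.683), 3 were not resolved and miR-137-3p was listed at 0 in both. Red blood cell, muscle, leukocyte and epithelial lists, 18 miRNAs in all, were listed at 0 throughout in the B16 exosomes, where each could be up to 0.0197% of reads. Liver miRNAs made up 0.0686% of cell reads and 0.0963% of exosome reads, with 1 of 3 higher. That was miR-122-5p, with 24 exosome reads where 2.43 were expected at an equal share. Fibroblast and smooth muscle miRNAs made up 3.83% and 8.06%, with 3 of 5 higher (miR-143-3p, miR-145a-5p and miR-199a-5p). Nearly all of that share was miR-143-3p, without which the list made up 0.236% and 0.442%, and miR-214-3p, a defining member, was listed at 0 in both. The remaining member, miR-199a-3p, was neither (11717 and 72 reads, ratio 1.07). Of the higher ones, miR-199a-5p had 13 exosome reads where 0.951 were expected. Like miR-122-5p, and like miR-182-5p with 3.77 expected, it is visible because its exosome share was high. The liver and fibroblast counts also stand against 8.53% of all kept miRNAs. The part of other cell types or of the medium in these values was not tested.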

How the data were processed

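The 3 deposited files each list 1915 mature miRNAs with a read count, not normalized, and an RPM value that the authors computed, per the file headers. The RPM values were not analysed, except that their totals served as an alternative scaling. Build mm10, BWA and bcl2fastq are named, without versions, in the submitters' processing notes. The annotation release, strand use and treatment of reads with several matches are not stated in the labels or headers. Counts below 10 are listed as 0. Each library held 45677 to 7925726 miRNA reads. No replicates exist, and without molecular identifiers reads are not independent molecules. Share ratios had exact conditional (Clopper-Pearson) 95% intervals, and arm and paralogue balances exact conditional odds-ratio intervals (Python 3.11.15, scipy 1.17.1), checked on simulated counts. Family and cluster spreads used miRNAs with 20 expected exosome reads. A family was called lower only if the call held with 9 reads for every member listed at 0, and entries with 1 sequence and the same counts were taken once, both conditions added after the data were seen. Seeds came from RefSeq and hairpin positions from GENCODE M21. For the family spreads, entries without a matched sequence were placed by name, a step added after the data were seen. Alternatives were TMM factors (edgeR 4.0.16), DESeq2 1.42.0 size factors, other totals, minimums, size rules and values of a listed 0. Named miRNAs were the 10 most abundant, and the 10 highest and 10 lowest by the interval bound nearest to 1 among called ones with 100 or more reads. Also named were up to 12 hairpins, the 12 largest and all called families, all clusters, and those listed at 0 with 50 expected reads. Listed markers were named or counted within their list. Others named as examples were picked with their values known. The comparison and the lists were chosen with earlier results of these data known.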

Additional observations from a re-analysis of the deposited data

How the results depend on the processing

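Scaling by TMM or DESeq2 for the pair, or by totals without the 10 most abundant miRNAs, moved every log2 ratio by -0.08, -0.03 and 0.06 and left all 29 named miRNAs on their side of the rule. TMM over all 3 libraries, added after seeing the data, moved every ratio by -1.02, and the authors' totals by -4.08. Arm, paralogue and cluster balances do not depend on scaling. With those 2 scalings in turn, miRNAs higher numbered 16 and 9 and lower 93 and 257, and of the 116 well-measured ones 0 and 0 were higher and 77 and 116 lower. Families higher were 0 and 0 and lower 18 and 42, and medians were -1.31 and -4.37 for major arms and -2.29 and -5.35 for minor arms. Under the authors' totals miR-122-5p (-0.77), miR-143-3p (-2.99) and miR-199a-5p (-0.30) changed from higher to below 0 on the log2 scale. Above 0 but not called before, let-7f-5p (-3.41), let-7i-5p (-3.92), let-7c-5p (-3.97), miR-10b-5p (-3.78) and miR-30a-5p (-3.66) also changed sign. With TMM over the 3 libraries these not called before fell below 0 as well, at -0.35, -0.86, -0.91, -0.72 and -0.60 in that order. With an interval bound of at least 2-fold, 23 miRNAs were higher and 14 lower, 3 hairpins shifted toward 5p and 2 toward 3p, and 1 family was lower. At 4-fold, 16 miRNAs were higher and 6 lower. With a listed 0 as 1 read, 60 miRNAs were lower and 13 and 11 hairpins shifted toward 5p and 3p, and with 5 reads 8 shifted toward 3p. Shifts toward 5p numbered 4 with a minimum of 100 reads, 2 with arms of 1 hairpin only, and 2 with both arms listed, where 3 shifted toward 3p. Families higher were 2 without the 10 most abundant miRNAs, 4 with seeds of bases 2 to 7, and 2 with entries placed by name, an alternative added after seeing the data. With 10 and 50 expected reads, the minor-arm median was -0.54 and -0.39 and the major minus minor difference 0.27 and -0.042, against 0.98, and with 50 the coefficient was -0.12 with length and -0.20 with G and C content. The cause of these changes was not tested. No paired analysis was possible because each group held 1 library. At the exosome depth, a miRNA needs 3124 cell reads before a listed 0 can be called lower.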
